A study of Mus musculus with 12 samples.

Results

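The genes described here are 33 genes that microglia, the resident macrophages of the brain, express: 10 genes of the resting (homeostatic) microglial surface, the 3 genes of complement C1q, and genes shared with other myeloid cells. They were taken from a list of symbols, leaving out markers of the macrophages at the borders of the brain, and found in the deposited count table through their Ensembl gene IDs. All 33 symbols were among the 55401 gene IDs of the table, and all 33 are protein-coding.

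RNA was sequenced from whole medial prefrontal cortex of male mice, so the values are those of a tissue and not of sorted microglia. The mice had been through conditioned place preference with morphine or saline, a procedure in which an animal learns to seek the chamber paired with a drug, and then 2 weeks of extinction. Each of 3 groups had 4 libraries. The group scramble saline received an adeno-associated virus with a scramble sequence and saline, the group scramble morphine received the same scramble virus and morphine, and the group knockdown morphine received a virus for knockdown of the serotonin receptor 5-HT6R and morphine. All 3 groups thus carried a virus, and no group combined the knockdown with saline. The strain, the age, the promoter of the virus and the cells it enters were not stated in the labels. The stated purpose was to find targets of lower 5-HT6R in the extinction of the preference. The labels do not tie each library to its own animal. The p-values therefore reflect the scatter among these libraries, part of which may be technical.

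Microglia live in the brain parenchyma and depend on signals from the tissue. Csf1r binds the growth factors CSF1 and IL-34 that keep microglia alive, the transcription factors PU.1 (gene Spi1), IRF8 and SALL1 set and hold their identity, and P2ry12 and Cx3cr1 let the processes sense nucleotides and the neuronal chemokine fractalkine. C1q starts the classical complement cascade and tags synapses for removal, and Trem2 with its adaptor Tyrobp controls phagocytosis and the response to lipids. In bulk tissue, fewer microglia and less of a transcript per microglial cell cannot be told apart.

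Total counts ran from 41483220 to 65739423 per library. Htr6, the gene of 5-HT6R, was at 5.30, 5.16, 4.82 and 5.58 CPM (counts scaled to library size with TMM factors) in scramble morphine replicates 1, 3, 4 and 5 and at 4.49, 5.30, 3.82 and 5.46 CPM in knockdown replicates 1, 2, 3 and 5. The groups overlapped, so the target does not check the labels in this tissue RNA. The share of counts at a ribosomal RNA locus (CT010467.1) ran from 3.58 to 5.63% in scramble saline, from 2.38 to 3.04% in scramble morphine and from 4.57 to 9.38% in knockdown. Scramble morphine thus lay below both other groups, while scramble saline and knockdown overlapped.

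Every one of the 33 genes was counted in every library, with between 154 and 11743 counts, and all 33 were tested. Per kilobase of exon and averaged over the 12 libraries, the most abundant transcripts were Ctss, a lysosomal protease, at 93.5 CPM per kb, and C1qa and C1qb, at 89.6 and 73.1 CPM per kb. C1qc followed at 42.8, Csf1r at 26.9 and Tyrobp at 22.1 CPM per kb. The lowest were Slc2a5, a fructose transporter, at 1.31 CPM per kb, and Ptprc, the leukocyte common antigen CD45, at 0.701 CPM per kb. The value for Ptprc divides by all annotated exons together, 18313 bases.

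Most of the 33 genes shifted together from library to library, and did so inside each group. In scramble morphine replicate 1, 32 of 33 genes were above their own median over the 12 libraries, and 16 had their highest value there. In scramble saline replicates 4 and 5 the number above the median was 29 and 31. At the other end stood knockdown replicate 2 and scramble morphine replicate 4, where 1 of 33 genes was above its median in each, and 20 genes had their lowest value in that knockdown library. Each group therefore held libraries at both ends, high and low.

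The middle of the list, the median log2 deviation of the 33 genes from their own means over the 12 libraries, gives the size of this pattern. It was -0.16, -0.04, 0.30 and 0.16 in scramble saline replicates 2, 3, 4 and 5. It was 0.35, 0.10, -0.28 and -0.16 in scramble morphine replicates 1, 3, 4 and 5, and 0.20, -0.54, 0.14 and -0.04 in knockdown replicates 1, 2, 3 and 5. The 3 groups overlapped, and the median level of the 33 genes spanned 1.52-fold, 1.67-fold and 1.55-fold within scramble saline, scramble morphine and knockdown. The low libraries scramble morphine replicate 4 and knockdown replicate 2 also had the smallest totals, 41483220 and 42840041 counts, while scramble morphine replicate 5, with -0.16 also low, had the largest total, 65739423. The part of depth in this pattern was not tested.

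**Figure D1:**
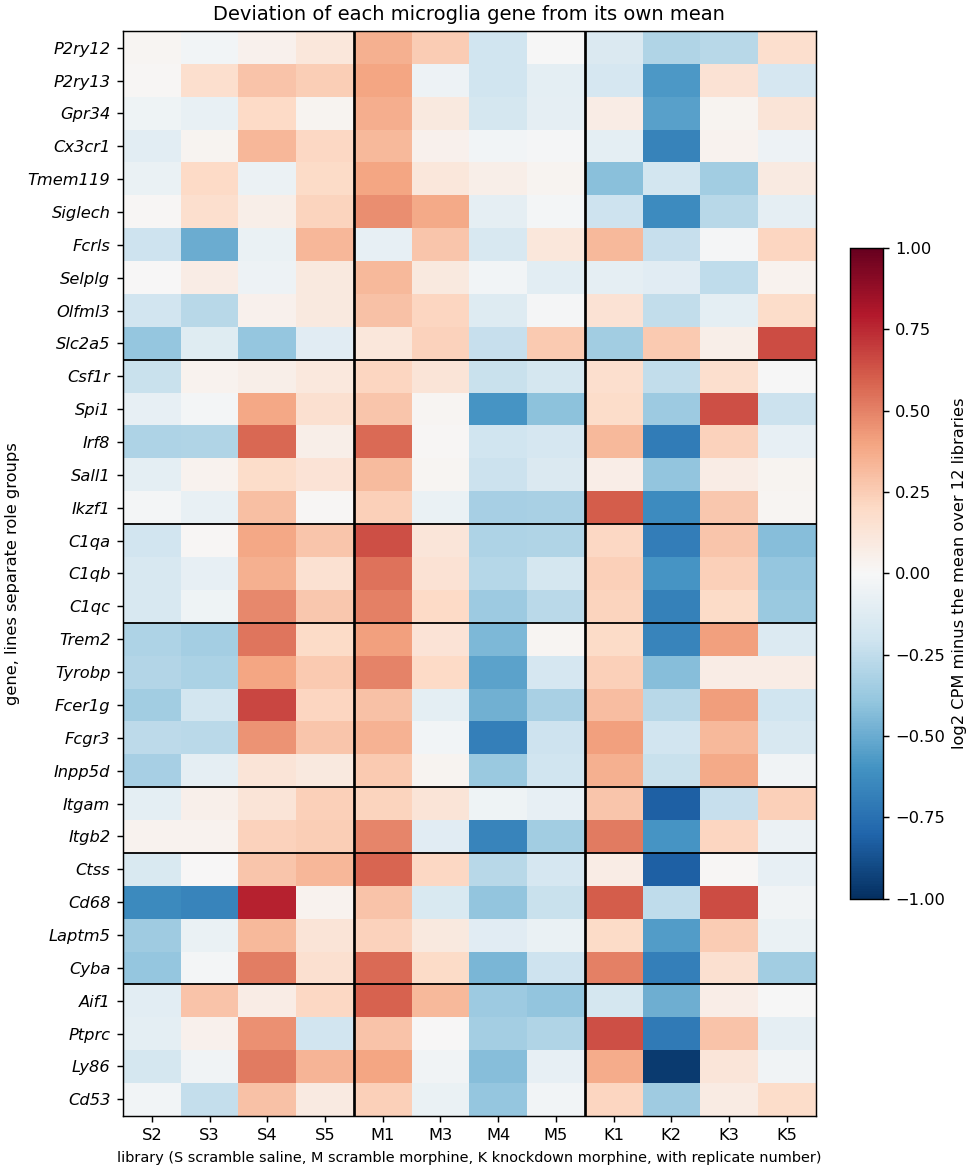
Log2 CPM of each of the 33 genes (rows, by role) in each of the 12 libraries (columns, by group), as the deviation from that gene's mean over the 12 libraries. Whole columns shift together: scramble morphine replicate 1 is high for 32 of 33 genes and knockdown replicate 2 is low for 32 of 33.

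Summed over the 33 genes, the level was 1190 ± 166 CPM (SD, n = 4) in scramble saline, 1170 ± 237 CPM in scramble morphine and 1090 ± 212 CPM in knockdown. The differences between these means were smaller than the SD of any group. Within groups, single genes varied by an SD of 0.133 (Selplg, the ligand of P-selectin) to 0.499 (Cd68, a lysosomal membrane protein) on the log2 scale. That is 3.02 to 19.5 times the SD that counting alone gives, so counting error was the smaller part of the spread. The 10 homeostatic genes had a median SD of 0.225 and the other 23 a median SD of 0.373, and the ratio of the highest to the lowest library ran from 1.37 for Csf1r to 2.78 for Ly86, a partner of a Toll-like receptor relative.

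PU.1 binds the letters GAGGAA, best within GAGGAAGT, and holds open many myeloid promoters. The 250 bases before each RefSeq start (GRCm38.p6) were searched for these letters on both strands. A start was listed for 25 of 33 genes. GAGGAA was in 14 of these 25 (56.0%), beside 25.9% of 27025 genes searched in the same way. By role it was in 2 of 7 homeostatic genes, 2 of 2 C1q genes, 3 of 4 genes each of the ITAM, lysosome and oxidase, and other shared roles, 1 of 1 integrin gene and 0 of 3 genes of the growth factor receptor and transcription factor role. The longer GAGGAAGT, which contains GAGGAA, was in 2 of 25 (8.0%, C1qc and Inpp5d), beside 2.79% of genes. The ETS-IRF composite element, at which PU.1 and IRF8 bind as a pair, was in 0 of 25, beside 2.68% of genes. A match is a run of letters and not a measured site. The list holds myeloid genes by choice, and any part of PU.1 in the shift by library was not tested.

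These windows are shown, 5′ to 3′ on the strand of the gene, for Siglech, Slc2a5 and P2ry13 and for C1qb, Trem2 and Inpp5d. The first 3 are homeostatic genes with an unadjusted edgeR p under 0.05 in knockdown against saline. Tmem119 also had such a p, but no start was listed for it. The last 3 show the match in the C1q and ITAM roles. Capitals mark GAGGAA, or TTCCTC where it lies on the other strand. In Siglech (chr7:55767934-55768183, plus strand) and Slc2a5 (chr4:150119094-150119343, plus strand) the letters are absent from this window. In P2ry13 (chr3:59210883-59211132, minus strand) the match begins 48 bases before the start, in C1qb (chr4:136886201-136886450, minus strand) 30 bases, in Trem2 (chr17:48346151-48346400, plus strand) 40 bases and in Inpp5d (chr1:87620062-87620311, plus strand) 20 bases before it.
Siglech: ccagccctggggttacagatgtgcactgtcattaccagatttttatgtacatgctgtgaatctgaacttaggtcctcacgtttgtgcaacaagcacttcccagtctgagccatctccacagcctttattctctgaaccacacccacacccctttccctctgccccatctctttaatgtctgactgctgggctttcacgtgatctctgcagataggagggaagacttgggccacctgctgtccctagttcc
Slc2a5: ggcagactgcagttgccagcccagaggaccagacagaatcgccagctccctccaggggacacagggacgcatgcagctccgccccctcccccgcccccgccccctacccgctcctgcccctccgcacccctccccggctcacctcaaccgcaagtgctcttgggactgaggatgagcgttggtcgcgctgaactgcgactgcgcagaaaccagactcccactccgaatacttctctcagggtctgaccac
P2ry13: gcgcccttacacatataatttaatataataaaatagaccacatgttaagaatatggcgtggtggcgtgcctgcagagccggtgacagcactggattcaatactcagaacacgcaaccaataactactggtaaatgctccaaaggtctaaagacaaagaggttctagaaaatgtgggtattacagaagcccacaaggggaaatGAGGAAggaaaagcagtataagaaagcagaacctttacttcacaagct
C1qb: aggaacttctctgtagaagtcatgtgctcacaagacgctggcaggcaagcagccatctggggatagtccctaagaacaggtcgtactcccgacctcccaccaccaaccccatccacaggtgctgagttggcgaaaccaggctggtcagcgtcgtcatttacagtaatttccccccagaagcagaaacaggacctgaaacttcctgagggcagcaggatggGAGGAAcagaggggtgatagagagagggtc
Trem2: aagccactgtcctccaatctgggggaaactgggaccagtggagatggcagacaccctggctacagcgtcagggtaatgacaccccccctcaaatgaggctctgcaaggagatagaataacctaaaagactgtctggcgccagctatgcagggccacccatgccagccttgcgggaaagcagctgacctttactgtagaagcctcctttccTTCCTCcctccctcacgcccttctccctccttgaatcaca
Inpp5d: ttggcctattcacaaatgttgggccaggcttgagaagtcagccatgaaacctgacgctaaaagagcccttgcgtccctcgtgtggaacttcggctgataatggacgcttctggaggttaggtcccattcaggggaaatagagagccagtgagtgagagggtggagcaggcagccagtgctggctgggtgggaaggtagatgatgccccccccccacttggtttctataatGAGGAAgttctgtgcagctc

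No gene of the list passed the test in any of the 3 comparisons, with edgeR, DESeq2 or limma voom. Over all genes, DESeq2 called 4 for morphine against saline, 164 for knockdown against scramble morphine and 147 for knockdown against saline. In that order limma voom called 0, 1 and 0. Morphine against saline, with the scramble virus in both, asks what the morphine training and its extinction left behind. With edgeR's quasi-likelihood test and Benjamini-Hochberg adjustment over all 21958 genes tested, 0 of 33 passed at 0.05, beside 0.0% of all genes. At an unadjusted p under 0.05 there were 0 of 33 beside 3.48% of all genes, and the groups did not overlap for 0 of 33 beside 3.32%. The log2 fold changes lay between -0.27 and 0.36 with a median of -0.02, and 63.6% of them were below 0 against 50.5% of all genes, whose median was 0.0.

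Knockdown against scramble, with morphine in both, asks what the virus against 5-HT6R changed. Again 0 of 33 genes passed, beside 0.0% of all genes. At an unadjusted p under 0.05 there were 2 of 33 (6.06%), Siglech and Tmem119, both with lower fitted levels in knockdown. All genes reached that p in 12% of cases, so the share among the microglia genes was below the background. The groups did not overlap for 1 gene of 33 (3.03%), Siglech, beside 5.85% of all genes. The log2 fold changes lay between -0.49 and 0.39 with a median of -0.06, and 63.6% were below 0 against 49.3% of all genes.

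Knockdown with morphine against scramble with saline combines both differences and cannot separate them. Here 0 of 33 genes passed, beside 0.0137% of all genes (3 genes). At an unadjusted p under 0.05 there were 4 of 33 (12.1%, against 9.35% of all genes), Siglech, P2ry13 and Tmem119 with lower and Slc2a5 with higher fitted levels. The groups did not overlap for 1 gene, again Siglech (3.03%, against 4.34% of all genes). The median log2 fold change was -0.06, and 69.7% were below 0 against 50.4% of all genes. This comparison shares its knockdown libraries with the one before and its saline libraries with the first, so the 20 genes below 0 in both knockdown comparisons are not 20 independent repeats.

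**Figure D2:**
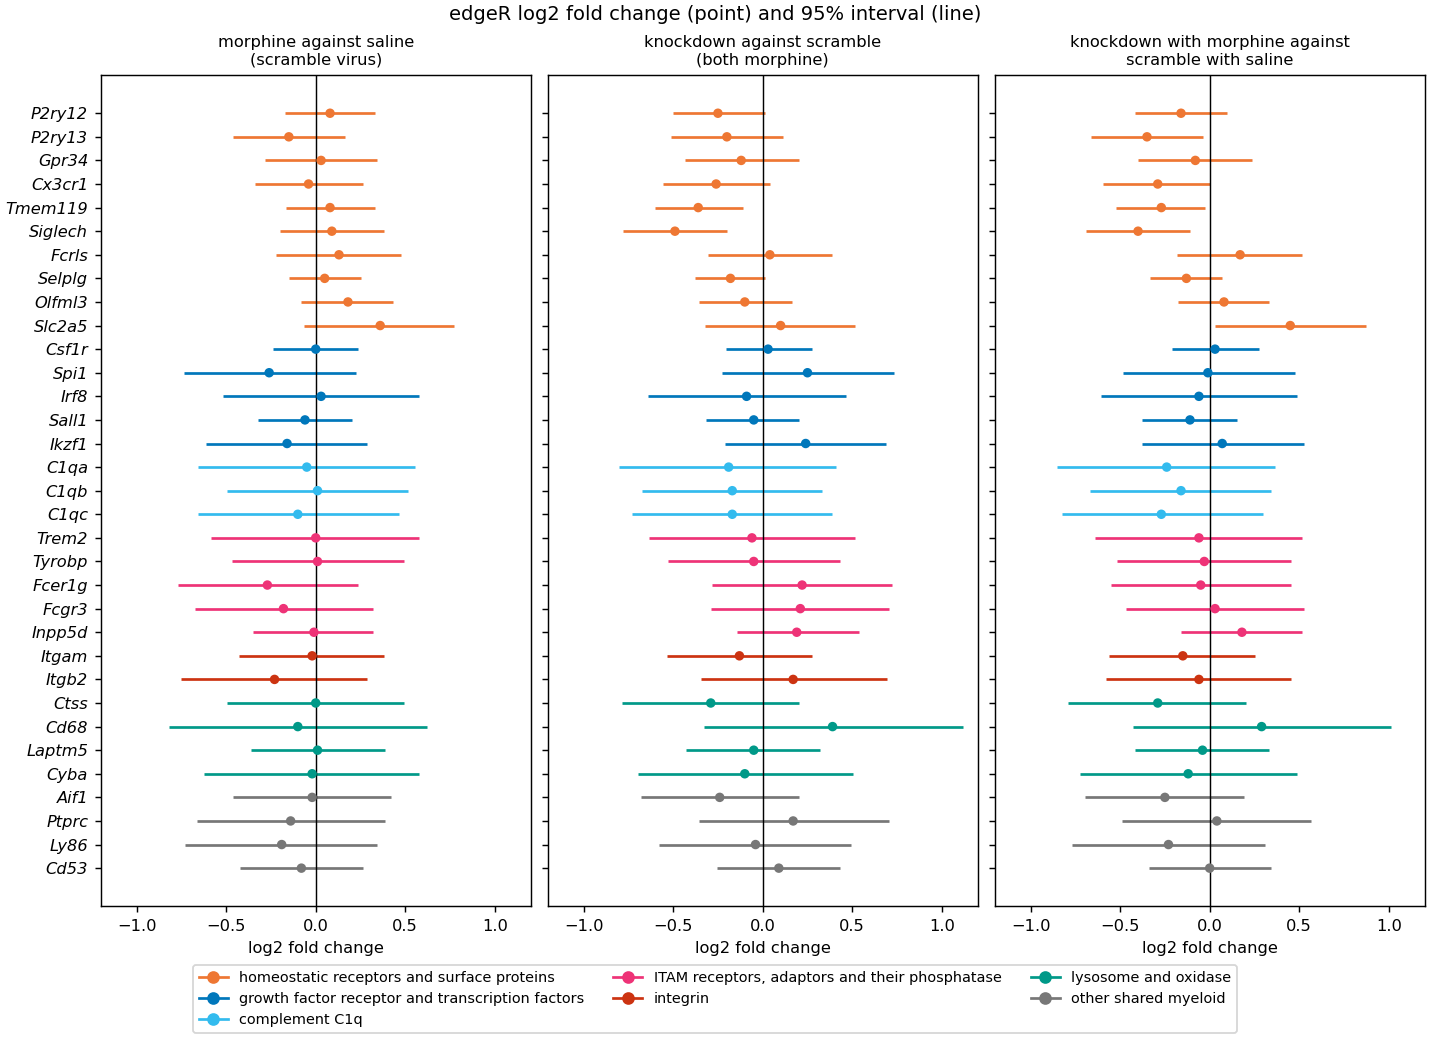
Fitted log2 fold change of each of the 33 genes (rows, by role) with its 95% interval in the 3 comparisons (panels). Most intervals include 0 and 0 of 33 genes pass the adjusted test in any panel; Siglech and Tmem119 lie below 0 in both knockdown panels.

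The genes with an unadjusted p under 0.05 in the knockdown comparisons all belonged to the homeostatic surface. Against scramble morphine 2 of 10 homeostatic genes were lower, beside 12% of all genes in either direction. Against saline 3 of 10 were lower and 1 higher, beside 9.35%. Both comparisons share the knockdown libraries. The homeostatic genes also had the smaller median SD within groups, 0.225 against 0.373, and a smaller SD gives a smaller p for the same fold change. No conclusion about the role is therefore drawn from these calls. Siglech (ENSMUSG00000051504, mm10 chromosome 7, 55768178 to 55778925, plus strand) encodes a sialic acid binding lectin that microglia share with plasmacytoid dendritic cells. Its level was 17.0, 18.9, 17.5 and 19.6 CPM in scramble saline replicates 2, 3, 4 and 5, 23.2, 21.9, 15.8 and 16.6 CPM in scramble morphine replicates 1, 3, 4 and 5, and 14.6, 10.9, 13.9 and 15.8 CPM in knockdown replicates 1, 2, 3 and 5. All 4 knockdown libraries were below all 8 others, but the highest of them and the lowest scramble morphine library both round to 15.8 CPM. The means were 18.2 ± 1.21, 19.4 ± 3.70 and 13.8 ± 2.10 CPM in that order (SD, n = 4). Against scramble morphine the log2 fold change was -0.49 (SE 0.14, unadjusted p = 0.00257, edgeR adjusted p = 0.271), a fold of 0.712 with a 95% interval from 0.582 to 0.870. Against scramble saline it was -0.40 (SE 0.14, unadjusted p = 0.00990, edgeR adjusted p = 0.379), a fold of 0.757. With the share of the ribosomal RNA locus as a covariate the first value was -0.51 and its edgeR adjusted p 0.941.

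Tmem119 (chromosome 5, 113793729 to 113800516, minus strand) encodes a membrane protein that marks resident microglia apart from blood-derived macrophages. Scramble saline gave 28.1, 33.8, 28.3 and 33.5 CPM in replicates 2, 3, 4 and 5, scramble morphine 38.6, 31.8, 30.6 and 29.9 CPM in replicates 1, 3, 4 and 5, and knockdown 22.0, 25.9, 23.1 and 31.3 CPM in replicates 1, 2, 3 and 5. Replicates 1, 2 and 3 of the knockdown were below all 8 other libraries and replicate 5 was among them, so the groups overlapped. The log2 fold change of knockdown was -0.36 against scramble morphine (SE 0.12, unadjusted p = 0.00801, edgeR adjusted p = 0.312) and -0.27 against scramble saline (SE 0.12, unadjusted p = 0.0332, edgeR adjusted p = 0.488). With the share of the ribosomal RNA locus as a covariate the first of these was -0.23 (edgeR adjusted p = 0.941). Without knockdown replicate 5 it was -0.47 with an edgeR adjusted p of 0.0415, and 375 genes in all passed in that fit.

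P2ry12 and P2ry13 are neighbouring genes for receptors of adenosine diphosphate, both within the span of Med12l on the opposite strand of chromosome 3. P2ry12 (59216272 to 59262871) was at 29.4, 28.4, 29.8 and 31.4 CPM in scramble saline replicates 2, 3, 4 and 5. It was at 37.1, 34.5, 25.3 and 28.9 CPM in scramble morphine replicates 1, 3, 4 and 5 and at 26.2, 23.5, 23.9 and 32.5 CPM in knockdown replicates 1, 2, 3 and 5. Knockdown replicate 5 was above all 4 saline libraries, and the groups overlapped. Knockdown against scramble morphine gave a log2 fold change of -0.25 (SE 0.12, unadjusted p = 0.0592, edgeR adjusted p = 0.435), and -0.15 without scramble morphine replicate 1 (edgeR adjusted p = 0.694). Exons of Med12l overlap those of P2ry12, and no source used here gives whether counting used the strand, so this value is uncertain by the reads of that gene. Med12l was at 36.6 ± 3.14 CPM in scramble morphine and 37.4 ± 8.45 CPM in knockdown (SD, n = 4).

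P2ry13 (59207892 to 59210882) shares no exon with Med12l. It was at 16.2, 18, 19.5 and 19.0 CPM in scramble saline replicates 2, 3, 4 and 5, at 21.1, 15.5, 14.0 and 15.0 CPM in scramble morphine replicates 1, 3, 4 and 5, and at 14.3, 10.8, 17.7 and 14.3 CPM in knockdown replicates 1, 2, 3 and 5. Only knockdown replicate 3 of its group reached the saline range. The log2 fold change of knockdown against saline was -0.35 (SE 0.15, unadjusted p = 0.0307, edgeR adjusted p = 0.482).

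Cx3cr1, the fractalkine receptor, was the homeostatic gene with the highest CPM (chromosome 9, 119901616 to 120069879, minus strand, with other genes inside that span). Its level was 69.2, 75.9, 93.6 and 86.2 CPM in scramble saline replicates 2, 3, 4 and 5, 93.3, 76.6, 73.0 and 74.0 CPM in scramble morphine replicates 1, 3, 4 and 5, and 69.8, 47.0, 76.2 and 71.9 CPM in knockdown replicates 1, 2, 3 and 5. Knockdown replicate 2 was the lowest of the 12 and the groups overlapped, at means of 81.2 ± 10.8, 79.2 ± 9.52 and 66.2 ± 13.1 CPM (SD, n = 4). Exons of Gm33858 on the opposite strand overlap those of Cx3cr1, so the level of Cx3cr1 carries the same doubt about strand as P2ry12.

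Slc2a5 (chromosome 4, 150119283 to 150144169, plus strand) had fitted values above 0 in the 3 comparisons, unlike most homeostatic genes in the knockdown comparisons. It was at 3.33, 3.99, 3.32 and 4.01 CPM in scramble saline replicates 2, 3, 4 and 5, at 4.71, 5.09, 3.71 and 5.22 CPM in scramble morphine replicates 1, 3, 4 and 5, and at 3.42, 5.22, 4.54 and 6.85 CPM in knockdown replicates 1, 2, 3 and 5. In each morphine group 1 library, scramble morphine replicate 4 or knockdown replicate 1, fell in the saline range. Knockdown against saline gave a log2 fold change of 0.45 (SE 0.20, unadjusted p = 0.0367, edgeR adjusted p = 0.502, fold 1.37, 95% interval 1.02 to 1.83), and 0.26 without knockdown replicate 5 (edgeR adjusted p = 0.571). Morphine against saline gave 0.36 (SE 0.20, unadjusted p = 0.0914, edgeR adjusted p = 0.999, fold 1.28, 95% interval 0.956 to 1.71), the smallest p of the list in that comparison. With the share of the ribosomal RNA locus as a covariate that value was 0.15 (edgeR adjusted p = 1.0).

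The other homeostatic genes were Gpr34, a lysophosphatidylserine receptor, Fcrls, an Fc receptor-like protein, Selplg, and Olfml3, a secreted matrix protein, and none had an unadjusted p under 0.05 in any comparison. Olfml3 was at 22.1, 20.8, 25.9 and 26.9 CPM in scramble saline replicates 2, 3, 4 and 5 and at 30.9, 29.2, 23 and 25 CPM in scramble morphine replicates 1, 3, 4 and 5. The groups overlapped, and the log2 fold change of morphine against saline was 0.18 (SE 0.12, unadjusted p = 0.167, edgeR adjusted p = 0.999). It was 0.10 without scramble morphine replicate 1 and 0.12 without scramble saline replicate 3. Of the 10 homeostatic genes, 8 were above 0 for morphine against saline (median log2 fold change 0.08), 8 were below 0 for knockdown against scramble morphine (median -0.19) and 7 were below 0 for knockdown against saline (median -0.15). The first pair of these comparisons shares the scramble morphine libraries, so a high scramble morphine library enters both with opposite sign.

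**Figure D3:**
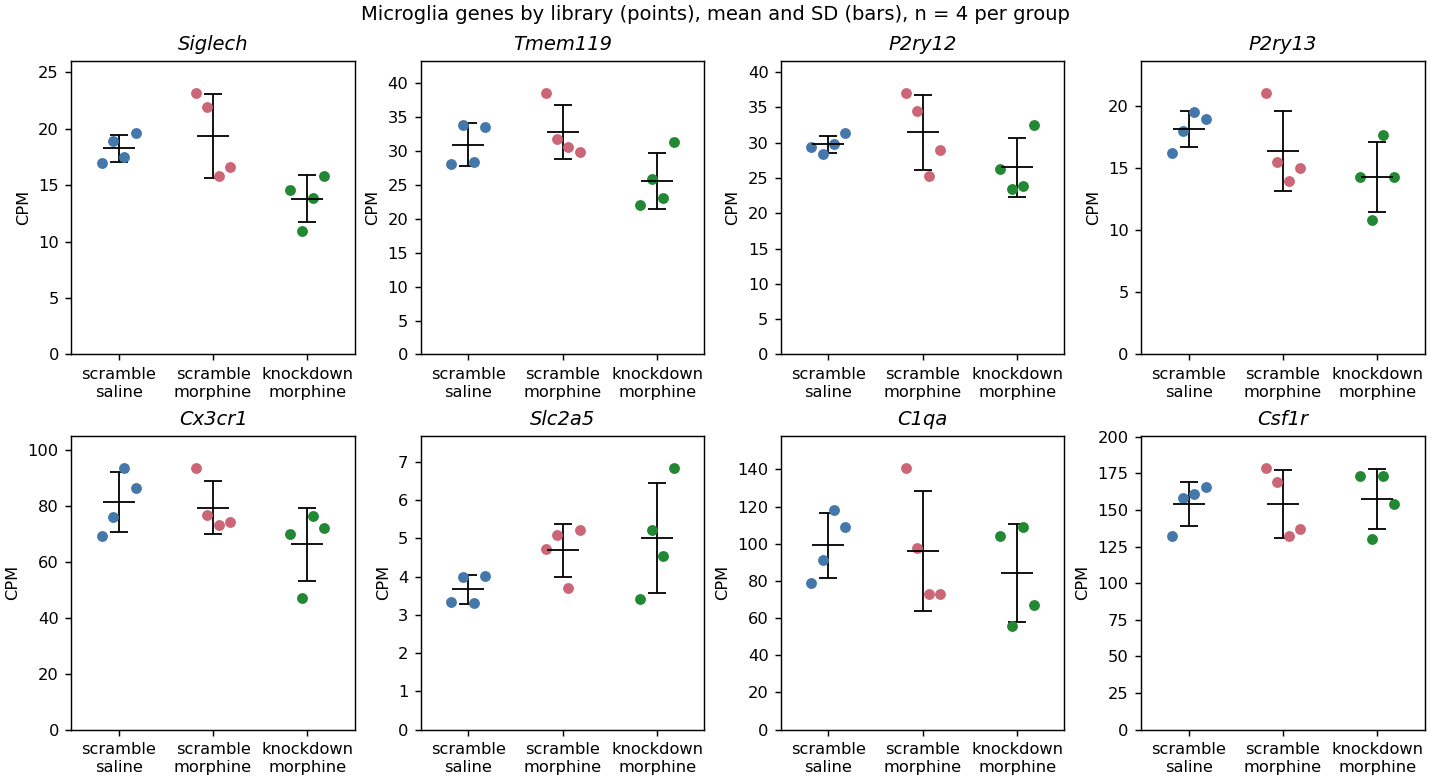
CPM of 8 microglia genes in each library, 1 panel per gene and 1 column of points per group, with a bar at the group mean and the SD (n = 4). Knockdown points of Siglech lie below those of both scramble groups; in the other 7 panels the groups overlap.

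Csf1r and the transcription factors had similar means in the 3 groups. Csf1r (ENSMUSG00000024621, chromosome 18, 61100598 to 61132149, plus strand) was at 132, 158, 161 and 166 CPM in scramble saline replicates 2, 3, 4 and 5, at 179, 169, 132 and 137 CPM in scramble morphine replicates 1, 3, 4 and 5, and at 173, 130, 173 and 154 CPM in knockdown replicates 1, 2, 3 and 5. Each group held libraries at both ends of the range. Exons of Hmgxb3 on the opposite strand overlap those of Csf1r, so its level carries the same doubt about strand as P2ry12; Hmgxb3 was at 45.7 ± 2.23, 44.7 ± 1.06 and 45.4 ± 1.47 CPM in scramble saline, scramble morphine and knockdown (SD, n = 4). The 95% interval of the fold of morphine over saline ran from 0.846 to 1.18 around 1.0. Spi1 was at 6.72, 7.00, 9.27 and 7.92 CPM in scramble saline replicates 2, 3, 4 and 5, and at 8.58, 7.21, 4.72 and 5.33 CPM in scramble morphine replicates 1, 3, 4 and 5. These groups overlapped, with a log2 fold change of -0.26 (SE 0.22, unadjusted p = 0.270, edgeR adjusted p = 0.999). It was -0.43 without scramble morphine replicate 1, -0.13 without scramble morphine replicate 4 and -0.16 without scramble saline replicate 4. Among Irf8, Sall1 and Ikzf1, the last a lymphoid and myeloid zinc finger factor, group means were 14.2 to 15.1, 28.3 to 30.6 and 7.52 to 8.87 CPM, and 0 of the 5 genes of this role had an unadjusted p under 0.05 in any comparison.

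C1qa, C1qb and C1qc encode the 3 chains of C1q and lie side by side on chromosome 4 (136880129 to 136898803, minus strand). C1qa was at 78.9, 91.0, 118 and 109 CPM in scramble saline replicates 2, 3, 4 and 5, at 141, 97.8, 72.7 and 73.1 CPM in scramble morphine replicates 1, 3, 4 and 5, and at 104, 55.9, 109 and 67.3 CPM in knockdown replicates 1, 2, 3 and 5. Scramble morphine replicate 1 was highest and knockdown replicate 2 lowest of the 12 for each of the 3 chains. All 3 chains were below 0 in knockdown against scramble morphine (log2 fold changes from -0.19 to -0.17) and against saline (from -0.27 to -0.16), and none had an unadjusted p under 0.05. The difference is smaller than the spread inside groups, where the SD of C1qa was 0.407 on the log2 scale.

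The genes of signalling through an activating tyrosine motif (ITAM) were Trem2 and its adaptor Tyrobp (DAP12) and the Fc receptor genes Fcer1g and Fcgr3. Read with them was Inpp5d, the lipid phosphatase SHIP1 that damps this signalling. Trem2 was at 21.6, 21.2, 38.7 and 30.6 CPM in scramble saline replicates 2, 3, 4 and 5, at 35.5, 29.5, 19.6 and 27.2 CPM in scramble morphine replicates 1, 3, 4 and 5, and at 30.5, 16.9, 35.6 and 24.4 CPM in knockdown replicates 1, 2, 3 and 5. The groups overlapped, with means of 28, 27.9 and 26.8 CPM. The median of the 5 log2 fold changes was -0.01, 0.19 and -0.03 in the 3 comparisons in the order given above, and 0 of 5 had an unadjusted p under 0.05.

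Itgam and Itgb2 encode the 2 chains of complement receptor 3, the integrin CD11b/CD18. Itgam was at 30.3, 33.6, 35.5 and 38.3 CPM in scramble saline replicates 2, 3, 4 and 5, at 37.8, 35.4, 31.5 and 30.7 CPM in scramble morphine replicates 1, 3, 4 and 5, and at 39.4, 18.4, 27.6 and 38.2 CPM in knockdown replicates 1, 2, 3 and 5. Knockdown held both the highest and the lowest of the 12 libraries. The SD was 9.86 CPM there and 3.37 and 3.34 CPM in scramble saline and scramble morphine. Exons of Gm49368 on the same strand overlap those of Itgam. Gm49368 reached at most 0.334 CPM, in knockdown replicate 1.

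Of the lysosome and oxidase genes, Ctss was at 111, 124, 150 and 156 CPM in scramble saline replicates 2, 3, 4 and 5, at 185, 143, 102 and 110 CPM in scramble morphine replicates 1, 3, 4 and 5, and at 130, 70.4, 125 and 117 CPM in knockdown replicates 1, 2, 3 and 5. Its groups overlapped. Cd68 had the highest fitted log2 fold change of the list for knockdown against scramble morphine, 0.39, and the largest spread within groups, with 11.1 to 29.8 CPM in scramble saline alone. Laptm5, a lysosomal membrane protein, and Cyba, a subunit of the phagocyte oxidase, were at group means of 63.8 to 66.2 and 11.8 to 12.9 CPM.

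The remaining genes, shared by most myeloid cells, were Ptprc, Aif1 (the calcium-binding protein Iba1), Ly86 and the tetraspanin Cd53. Ptprc was at 11.6, 12.8, 17.1 and 10.9 CPM in scramble saline replicates 2, 3, 4 and 5, at 15.2, 12.5, 9.85 and 10.1 CPM in scramble morphine replicates 1, 3, 4 and 5, and at 19.4, 7.63, 15.2 and 11.7 CPM in knockdown replicates 1, 2, 3 and 5. As with Itgam, the highest and the lowest library were both in the knockdown group. The 4 genes had median log2 fold changes of -0.11, 0.02 and -0.11 in the 3 comparisons, and 0 of 4 had an unadjusted p under 0.05.

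Because the genes shift together by library, each was also set against the median of the other 32 in the same library. Siglech stood at -0.20, -0.13, -0.07 and -0.31 on the log2 scale in scramble morphine replicates 1, 3, 4 and 5 and at -0.86, -0.70, -0.77 and -0.44 in knockdown replicates 1, 2, 3 and 5. These groups did not overlap, with a difference of -0.52. The scramble saline libraries, at -0.19, 0.0, -0.64 and -0.42, overlapped the knockdown ones. On this scale 3 of 33 genes (9.09%) did not overlap between knockdown and scramble morphine, beside 1.71% of all genes set against the median of all 33. Siglech and C1qb (-0.23) had lower and Inpp5d (0.14) higher relative levels. Between knockdown and saline there were 2 (6.06%, beside 2.09%), C1qc lower by 0.23 and Inpp5d higher by 0.23, and between morphine and saline 0 (beside 1.26%). The median comes from the list itself, so the shares in the list and in all genes are not on the same footing. Subtracting it lowered the share of all genes from 5.85 to 1.71% against scramble morphine and from 4.34 to 2.09% against saline. The shares therefore cannot be compared, and no conclusion is drawn from them. With the median of the 33 genes as a covariate in the fit, an alternative chosen after seeing the data, Siglech gave a log2 fold change of -0.51 against scramble morphine with an edgeR adjusted p of 0.186, and Tmem119 -0.36 with 0.264.

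Inpp5d showed the steadiest relative level in knockdown, 0.53, 0.56, 0.59 and 0.55 in replicates 1, 2, 3 and 5. In scramble morphine it was at 0.38, 0.37, 0.49 and 0.43 in replicates 1, 3, 4 and 5. Its unscaled level overlapped between the groups, at 26.0 ± 4.99 CPM in scramble morphine and 29.8 ± 5.99 CPM in knockdown (SD, n = 4).

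The homeostatic genes and the rest did not always shift by the same amount. The median deviation of the 10 homeostatic genes minus that of the other 23 was 0.12, 0.04, -0.35 and -0.01 on the log2 scale in scramble saline replicates 2, 3, 4 and 5. It was -0.01, 0.14, 0.22 and 0.19 in scramble morphine replicates 1, 3, 4 and 5 and -0.36, 0.31, -0.28 and 0.18 in knockdown replicates 1, 2, 3 and 5. Scramble saline replicate 4 and knockdown replicates 1 and 3 stood low, since their other genes were at 0.39, 0.24 and 0.22 while their homeostatic genes were at 0.04, -0.12 and -0.06. The groups overlapped.

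**Figure D4:**
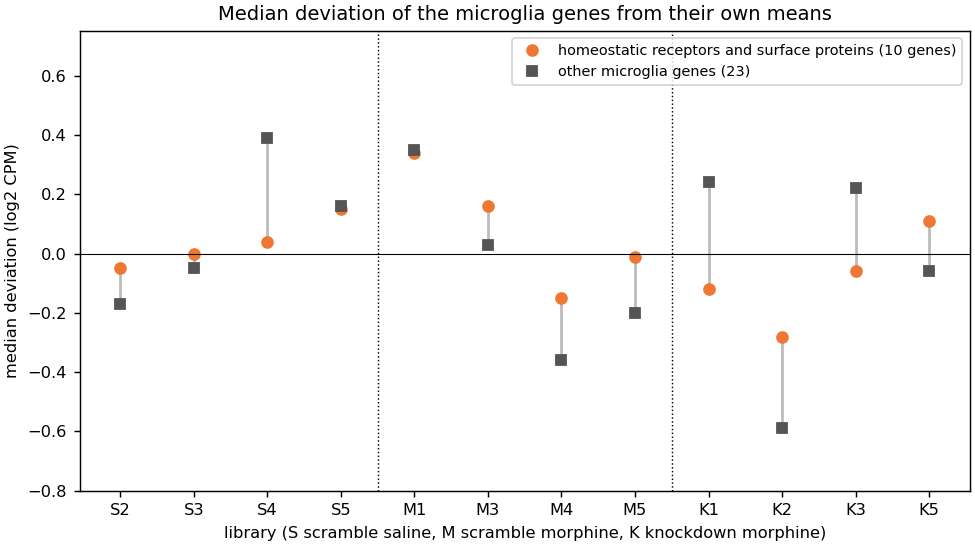
Median log2 deviation from each gene's mean over the 12 libraries for the 10 homeostatic genes and for the other 23 microglia genes, in each of the 12 libraries. The distance between the pair is largest in scramble saline replicate 4, knockdown replicate 1 and knockdown replicate 2, and its sign differs between libraries of the same group.

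Other macrophages carry many of the shared myeloid genes. The 12 markers of border macrophages (the lymphatic and scavenger receptors Lyve1, Mrc1, Cd163 and Stab1 and others), summed, were at 41.9, 44.5, 52.4 and 50.7 CPM in scramble saline replicates 2, 3, 4 and 5, at 58.6, 44.4, 36.2 and 53.5 CPM in scramble morphine replicates 1, 3, 4 and 5, and at 109, 66.2, 96.9 and 60.6 CPM in knockdown replicates 1, 2, 3 and 5. All 4 knockdown libraries were above all others. All 12 markers were tested, 10 were above 0 on the log2 scale in knockdown against scramble morphine and 0 passed. At an unadjusted p under 0.05 there were 4 of 12 (33.3%, beside 12% of all genes) in that comparison, with Mrc1 at a log2 fold change of 1.01 (SE 0.19, edgeR adjusted p = 0.239), and 7 of 12 (58.3%, beside 9.35%) against saline, each with a higher fitted level in knockdown. Cd209f was at 0 in 1 library and the other 11 were counted in every one. The 2 knockdown libraries with the highest sums, replicates 1 and 3, are those of that group in which the other 23 genes stood above the homeostatic ones. The other 23 genes also stood above the homeostatic ones in scramble saline replicate 4, with a sum of 52.4 CPM. That sum was the highest of its group through Stab1, at 36.3 CPM there and 28.0, 26.1 and 31.6 CPM in replicates 2, 3 and 5. Mrc1 lay inside the range of its group in that library, at 4.97 CPM, while F13a1 and Cbr2 had their lowest values of the 12 libraries there. Stab1 averaged 36.9 CPM over the 12 libraries and Mrc1, the next highest marker, 7.54 CPM, so Stab1 weighs most in these sums. Scramble morphine replicates 1 and 5, with higher sums of 58.6 and 53.5 CPM, had homeostatic minus other differences of -0.01 and 0.19. The part of these cells in the microglia values was not tested.

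The 14 markers of blood leukocytes summed to 4.03 to 9.41 CPM in scramble saline, 3.77 to 9.76 CPM in scramble morphine and 4.22 to 17.4 CPM in knockdown, the highest in replicate 1. Of these markers 6 were counted in every library, and the neutrophil granule genes Camp and Retnlg were at 0 in 9 and 10 libraries. Neuronal markers summed to 7490 to 9480 CPM, as the cortex label implies. The sums of both blood and neuronal markers overlapped between the groups. Of the 12 blood markers tested, 11 were below 0 for morphine against saline (median log2 fold change -0.61), while 50.5% of all genes were below 0. In knockdown against scramble morphine, which shares the scramble morphine libraries, 11 were above 0 (median 0.54). Against saline, knockdown had 6 above and 6 below 0 (median -0.03). With edgeR 0 of the 12 passed in each comparison. For morphine against saline 1 of 12 (8.33%, beside 3.48% of all genes) had an unadjusted edgeR p under 0.05, and for knockdown against scramble morphine 0 of 12. Several of these markers lay near the floor: Ms4a1, Ngp, S100a8 and Cd3d averaged 0.097 to 0.255 CPM over the 12 libraries. Their fold changes therefore rest on few reads.

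Markers of 4 further cell types were read beside the homeostatic genes in knockdown against scramble morphine. Oligodendrocyte markers were below 0 for 7 of 7 (median log2 fold change -0.30), with summed levels of 1190 to 2030 CPM in knockdown and 1830 to 2500 CPM in scramble morphine. Endothelial markers were above 0 for 7 of 7 (median 0.23), at 229 to 314 and 204 to 245 CPM. Both of these sums overlapped. Markers of oligodendrocyte precursors were above 0 for 3 of 3 (median 0.20) and their sums did not overlap, at 110 to 133 CPM in knockdown and 97.7 to 105 CPM in scramble morphine, though scramble saline reached 112 CPM. Astrocyte markers were above 0 for 2 of 8 (median -0.10). An unadjusted edgeR p under 0.05 was reached by 12% of all genes. Among the markers it was reached by 2 of 7 of oligodendrocytes (28.6%), with lower fitted levels. With higher fitted levels it was reached by 3 of 7 of endothelium (42.9%), 2 of 3 of precursors (66.7%) and 1 of 8 of astrocytes (12.5%). This comparison shares its scramble morphine libraries with morphine against saline. There 6 of 7 endothelial and 3 of 3 precursor markers were below 0. Above 0 were 6 of 7 oligodendrocyte and 8 of 8 astrocyte markers. Against saline, knockdown had an unadjusted edgeR p under 0.05 for 0 of 7 endothelial and 1 of 7 oligodendrocyte markers. For precursors it was 2 of 3 and for astrocytes 2 of 8, beside 9.35% of all genes. None of these markers passed the edgeR test, and their part in the levels of the homeostatic genes was not tested.

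Genes related to the list were read in 4 groups, of which 0 passed in any comparison with edgeR. A further 30 microglia genes outside the list had median log2 fold changes of 0.0, -0.06 and -0.09 in the 3 comparisons, close to the values above. In knockdown against scramble morphine 4 of 30 (13.3%) had an unadjusted p under 0.05, a share near the 12% of all genes: Entpd1, an ectonucleotidase, with a higher and 3 with lower fitted levels, namely Cst3, a cathepsin inhibitor also made by astrocytes (log2 fold change -0.46, SE 0.14, edgeR adjusted p = 0.310), Havcr2, the inhibitory receptor TIM-3 (-0.38, SE 0.16, edgeR adjusted p = 0.369), and the adenosine receptor gene Adora3 (-0.68, SE 0.30, edgeR adjusted p = 0.388). Havcr2 and Adora3 also had lower fitted levels in knockdown against saline, at -0.43 and -0.66, with the same knockdown libraries. Mertk, a phagocytic receptor that astrocytes share, was at 47.4 ± 4.09 CPM in scramble saline, 56.0 ± 3.60 CPM in scramble morphine and 61.3 ± 7.76 CPM in knockdown (SD, n = 4; knockdown against saline 0.37, SE 0.09, edgeR adjusted p = 0.290).

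The 13 genes for signals to microglia, such as the CSF1 receptor ligands Csf1 and Il34 and the fractalkine gene Cx3cl1, had medians of -0.03, 0.04 and 0.01. Only Tgfb3, a transforming growth factor, had an unadjusted p under 0.05, at 0.24 in knockdown against scramble morphine (SE 0.09, edgeR adjusted p = 0.332). That was 7.69% of these genes, beside 12% of all genes. The 9 other complement genes had medians of 0.21, 0.28 and 0.40, with all 9 above 0 in knockdown against saline, where 50.4% of all genes were below 0. An unadjusted edgeR p under 0.05 was reached by 3 of 9 (33.3%, beside 9.35% of all genes) in that comparison. It was reached by 1 of 9 (11.1%) in each of the others, beside 3.48% for morphine against saline and 12% for knockdown against scramble morphine. In knockdown against saline C2, a protease of the classical pathway, was at 0.91 (SE 0.23, edgeR adjusted p = 0.308), and Serping1, the C1 inhibitor, at 0.88 (SE 0.28, edgeR adjusted p = 0.378).

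The 24 genes of activated microglia had medians of -0.10, 0.14 and 0.09. An unadjusted edgeR p under 0.05 was reached by 4.17%, 8.33% and 4.17% of them, beside 3.48%, 12% and 9.35% of all genes. Lpl, lipoprotein lipase, was at -0.47 for morphine against saline (SE 0.20, edgeR adjusted p = 0.999) and at 0.78 for knockdown against scramble morphine (SE 0.20, edgeR adjusted p = 0.264), 2 comparisons that share the scramble morphine libraries. Apoe, mostly made by astrocytes, was at -0.30 in the latter (SE 0.12, edgeR adjusted p = 0.363). Spp1, osteopontin, was at 1.0 for knockdown against saline (SE 0.44, edgeR adjusted p = 0.526).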

How the data were processed

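The deposited table holds whole-number read counts per gene for 12 libraries, made by the authors from paired-end reads. Per the labels' protocols, RNA was selected with oligo(dT) and the second strand marked with dUTP. The submitters' processing notes name mm10, HISAT2 2.0.4, StringTie 1.3.4d, cutadapt 1.9, edgeR and DESeq2, with no roles; the strand setting and annotation release of the counting are not stated in them. Of 55401 gene IDs, 55141 matched a symbol. Coordinates and exon lengths are from GENCODE mouse M21 (GRCm38, the assembly of mm10), and promoters from RefSeq (GRCm38.p6).

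The 33 genes, their roles and the related lists were chosen with earlier results of these data known, so lists are described and not tested. Counts were fitted for all 12 libraries with edgeR 4.0.16 in R 4.3.3 (filterByExpr with a minimum count of 10, TMM, robust quasi-likelihood, 1 mean per group, 9 residual df, a biological coefficient of variation of 23.2%), with two-sided p-values adjusted by Benjamini-Hochberg over 21958 genes. Values are printed for members with an unadjusted p under 0.05, or the 3 smallest p where fewer had one, and for the member of highest CPM in each role. DESeq2 1.42.0, limma 3.58.1 voom, other scalings and filters, a replicate block, covariates and leaving libraries out were tried. The steps were tested on simulated data. One gene of a related list is not reported here by name.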

Additional observations from a re-analysis of the deposited data

Results flagged for a closer look

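Sall1, the zinc finger factor that separates microglia from other macrophages, was at 22.2 CPM in knockdown replicate 2, while the other 3 knockdown libraries lay between 29.8 and 30.7 CPM. The gap to the nearest of them was 0.89 of the whole range of the group, above the critical value of 0.829 for 4 samples. It was 1 of 99 groups of 4 looked at in this way, where chance alone flags about 5%. In the same library 20 of the 33 genes had their lowest value.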

How the results depend on the processing

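The number of microglia genes passing stayed at 0 in the 3 comparisons under the other scalings, filters, tools, covariates and with only the compared groups. Leaving out 1 library at a time, the number for knockdown against scramble morphine ran from 0 to 1: it was 1 (Tmem119, -0.47, edgeR adjusted p = 0.0415) without knockdown morphine replicate 5, and the cause was not tested. In the same comparison Siglech kept its sign in all 23 alternatives, with log2 fold changes from -0.58 to -0.39 and adjusted p from 0.0584 to 0.941, and Tmem119 lay between -0.47 and -0.23. The median of the 33 log2 fold changes had no fixed sign. It ran from -0.225 to 0.068 for morphine against saline, from -0.167 to 0.07 for knockdown against scramble morphine and from -0.177 to 0.074 for knockdown against saline; the second was 0.065 with scramble morphine replicate 1 left out and 0.07 with knockdown replicate 2 left out, and the last 0.047 with scramble saline replicate 4 left out and 0.074 with limma voom. Libraries with the same replicate number correlated between -0.0578 and 0.27, 5 of 9 pairs above 0.1, and 8 of 12 libraries correlated best with their own number, which the labels do not explain. With the replicate number as a block, 0 of 33 genes passed in each comparison, Siglech was at -0.47 (adjusted p = 0.109) and the median was 0.027 against scramble morphine, -0.225 for morphine against saline and -0.177 for knockdown against saline, while Spi1 for morphine against saline was at -0.47 (unadjusted p = 0.0471, adjusted p = 0.770) and Olfml3 at 0.08.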
